A study of Mus musculus with 5 samples.

Results

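Levels of 10 AP-1 and immediate early genes were described in haematopoietic stem cells (HSCs) sorted from the bone marrow of mice aged 3 weeks. The genes are Jun, Junb, Jund, Fos, Fosb, Egr1, Ier2, Ier3, Zfp36 and Dusp1, and they were taken by name from the 55335 genes of the table. They were chosen by earlier results on the TPM values of these same libraries, so their difference between genotypes is given as a description and without a test. All 10 were at 1 TPM or more in all 5 libraries. TPM is the share of a gene among the length-corrected transcripts of its library, on a fixed total of 1000000.

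The 5 libraries come from 3 wild-type and 2 RankCre-ki samples of the C57BL/6J strain, each a pool of 80 to 90 cells by the number at the end of its name. RankCre-ki animals carry Cre knocked into 1 copy of Rank (Tnfrsf11a) and, at Csf1r, a floxed allele opposite a null allele. By the study's methods the Csf1r null line was kept on C3H/HeJ. The Cre recombines in macrophages of embryonic origin, so the mice lack these cells and osteoclasts and have dense bone. They are a model of HSCs raised without these cells. By genotype the HSCs themselves also carry 1 null Csf1r allele and 1 Rank copy with Cre. Cells were sorted as lineage-negative, Kit and Sca-1 positive, CD150+ and CD48-. No label gives the number of animals behind a library or says that the libraries are separate animals, so the spread between them may be partly technical.

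AP-1 is a transcription factor made of a JUN subunit paired with another JUN or with a FOS subunit through a leucine zipper. JUN and FOS genes, Egr1 and the IER genes are immediate early genes: signals such as growth factors, cytokines or stress switch them on within minutes through kinases and factors already in the cell, with no new protein needed. Their mRNAs decay fast. Zfp36 encodes tristetraprolin, which binds AU-rich elements and speeds that decay, and Dusp1 encodes a phosphatase that inactivates MAP kinases, so both act as feedback on the same response. In blood stem cells the response accompanies stimulation, and it also follows the isolation of cells from tissue.

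The AU-rich elements of the 3′ UTR are shown because tristetraprolin, the product of Zfp36, binds such elements. Turnover of the transcripts was not measured. TATTTAT, the core recognised by tristetraprolin, was searched on the transcript strand in the 3′ UTR of the GENCODE M21 model with the longest coding sequence (build GRCm38). It was present in 7 of the 10 genes, against 26.5% of tested protein-coding genes, and it occurred 1.62 times per kb of 3′ UTR against 0.290. Ier3 holds 4 copies, Zfp36 and Dusp1 3 each, Fos 2, and Jun, Jund and Fosb 1, while Junb, Egr1 and Ier2 hold none. The shorter ATTTA, which also lies inside TATTTAT, was found in 9 of the 10 genes against 64.5%. One site each is given for Jun (chr4:95049082-95049104, minus strand), Fos (chr12:85477106-85477128, plus strand), Ier3 (chr17:35822484-35822506, plus strand), Zfp36 (chr7:28376969-28376991, minus strand) and Dusp1 (chr17:26506162-26506184, minus strand). TATTTAT is in capitals, and the Ier3 stretch holds it in tandem.
Jun: cttgtgcaTATTTATaatagcgt
Fos: tttcaattTATTTATtaagatgg
Ier3: ctaattaaTATTTATgTATTTAT
Zfp36: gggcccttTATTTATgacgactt
Dusp1: ctggtcctTATTTATttaacacc

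Promoters are shown for Jun, Fos, Zfp36 and Dusp1, as examples of windows that matched one of the motifs searched and of genes with higher and with overlapping levels. The windows run from 250 bases before to 50 bases after the start site and were taken from RefSeq on GRCm38.p6, which had an entry for 8 of the 10 genes. The windows are chr4:95052173-95052472 (minus strand) for Jun, chr12:85473640-85473939 (plus strand) for Fos, chr7:28379179-28379478 (minus strand) for Zfp36 and chr17:26508423-26508722 (minus strand) for Dusp1. Capitals mark the matches, which were searched on both strands.
Jun: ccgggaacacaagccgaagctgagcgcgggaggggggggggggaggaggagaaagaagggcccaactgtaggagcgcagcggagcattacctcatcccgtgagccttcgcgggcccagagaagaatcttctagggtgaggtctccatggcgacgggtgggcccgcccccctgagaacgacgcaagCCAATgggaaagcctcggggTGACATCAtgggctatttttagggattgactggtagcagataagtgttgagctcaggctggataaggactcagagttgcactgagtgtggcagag
Fos: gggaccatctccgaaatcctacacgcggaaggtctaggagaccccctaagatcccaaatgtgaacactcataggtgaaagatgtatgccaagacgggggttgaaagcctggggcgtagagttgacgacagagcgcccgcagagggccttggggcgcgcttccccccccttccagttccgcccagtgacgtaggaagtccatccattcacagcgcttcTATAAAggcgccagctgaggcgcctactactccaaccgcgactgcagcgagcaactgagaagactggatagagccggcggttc
Zfp36: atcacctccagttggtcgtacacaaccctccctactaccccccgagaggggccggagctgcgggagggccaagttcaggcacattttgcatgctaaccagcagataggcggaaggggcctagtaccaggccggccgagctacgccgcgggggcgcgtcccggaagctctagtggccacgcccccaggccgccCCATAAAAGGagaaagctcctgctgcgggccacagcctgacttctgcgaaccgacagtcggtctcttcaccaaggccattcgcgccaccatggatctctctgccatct
Dusp1: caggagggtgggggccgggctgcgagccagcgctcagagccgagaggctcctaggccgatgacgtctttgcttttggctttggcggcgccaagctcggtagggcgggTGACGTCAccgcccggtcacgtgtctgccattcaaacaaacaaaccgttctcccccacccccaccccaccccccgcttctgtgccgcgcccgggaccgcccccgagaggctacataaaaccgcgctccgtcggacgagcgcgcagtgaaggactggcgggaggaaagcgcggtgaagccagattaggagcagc

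The CArG box, the site of serum response factor, was found in the Zfp36 window alone, 58 bases before the start, and in 1.30% of the 9477 windows of tested genes. TGACNTCA, a site for JUN and ATF proteins, was found in Jun at 45 and in Dusp1 at 143 bases before the start, against 7.12% of windows. TATAAA was found in Fos 33 bases before the start and in Junb at the start used for the window, against 7.61%. The Junb gene as given below starts further downstream (chr8:84978718, minus strand), so its TATAAA lies before that start. CCAAT was in Jun, Junb and Ier3, against 39.7%, and the AP-1 site TGANTCA was in none of the 8 windows, against 4.87%. These are matches of letters inside a short window and not measured binding. The Jund window (chr8:70697489-70697788, plus strand) ends before the start of the gene as given below (70698949). It is counted among the 8 windows but does not cover that start.

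All 10 genes have few exons. Jun, Junb, Jund and Ier2 have 1 exon, Egr1, Ier3 and Zfp36 have 2, and Fos, Fosb and Dusp1 have 4, where the median tested protein-coding gene has 9. On GRCm38, Jun lies on chromosome 4 (95049034 to 95052222, minus strand), and Junb, Jund and Ier2 share chromosome 8 (84974484 to 84978718, minus; 70698949 to 70700616, plus; 84661331 to 84662852, minus). Fos is on chromosome 12 (85473890 to 85477273, plus strand). Fosb and Zfp36 are on chromosome 7 (19302696 to 19310051 and 28376784 to 28380253, both minus). Ier3 and Dusp1 are on chromosome 17 (35821684 to 35822923, plus, and 26505590 to 26562128, minus), and Egr1 is on chromosome 18 (34859823 to 34864984, plus). Jun, Junb, Jund, Zfp36 and Dusp1 overlap a gene on the opposite strand, among them Junos for Jun and Prdx2 for Junb. The use of strand is not stated, so part of their signal could belong to the partner.

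Several properties of the whole libraries moved with the genotype label. The libraries labelled RankCre-ki had 12801 and 16386 genes at 1 TPM or more against 9021 to 11084 in wild-type, and mitochondrial transcripts held 8.21% and 10.7% against 14.7% to 21.0%. Of 12 HSC marker genes, 10 were at 1 TPM or more in all libraries. Cd48, which the sort selects against, was undetected (0 TPM) throughout wild-type but reached 4.92 and 5.62 TPM where the label was RankCre-ki, and Csf1r was at 0 to 2.39 TPM against 17.5 and 6.46 TPM. Csf1r was thus higher in the libraries whose label gives a null allele opposite a floxed one. The reason was not tested, and groups are named here by their labels. Summed over marker lists, neutrophil genes were at 0 to 6.56 TPM in wild-type and 11.4 to 27.8 TPM in RankCre-ki, with Elane at 0 throughout, and erythroid genes were at 147 to 217 against 293 to 875 TPM, with Slc4a1 at 0 throughout. Neutrophil genes lay above all wild-type libraries for 1 of 8, and erythroid genes for 1 of 8, where 18.8% of all tested genes did. Macrophage and monocyte genes (232 to 313 against 151 to 332 TPM, Adgre1 and C1qc at 0), megakaryocyte genes (60.4 to 178 against 149 to 170), B cell genes (38.1 to 147 against 31.6 to 69.6, Cd79a at 0), T and NK cell genes (2.29 to 47.1 against 31.8 to 44.4) and stromal and endothelial genes (18.4 to 35.4 against 28.9 to 31.7) overlapped in their sums. Their part in the results was not tested. In such bulk pools a change in the make-up of the cells and a change in RNA per cell cannot be told apart.

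Library names fall into 2 series, with wild-type replicate 1 and RankCre-ki replicate 2 in name series 1 and the other libraries in name series 2. This composition is that of the 2 tagmentation kits in the study's methods, although no label ties a library to a kit. RankCre-ki replicate 2 is labelled female, yet the Y-linked Eif2s3y was at 62.5 TPM and Xist at 0.0229 TPM, close to the male wild-type replicate 1 (41.6 and 0.0273 TPM). Differences are therefore also given within each series and without this library.

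**Figure D1:**
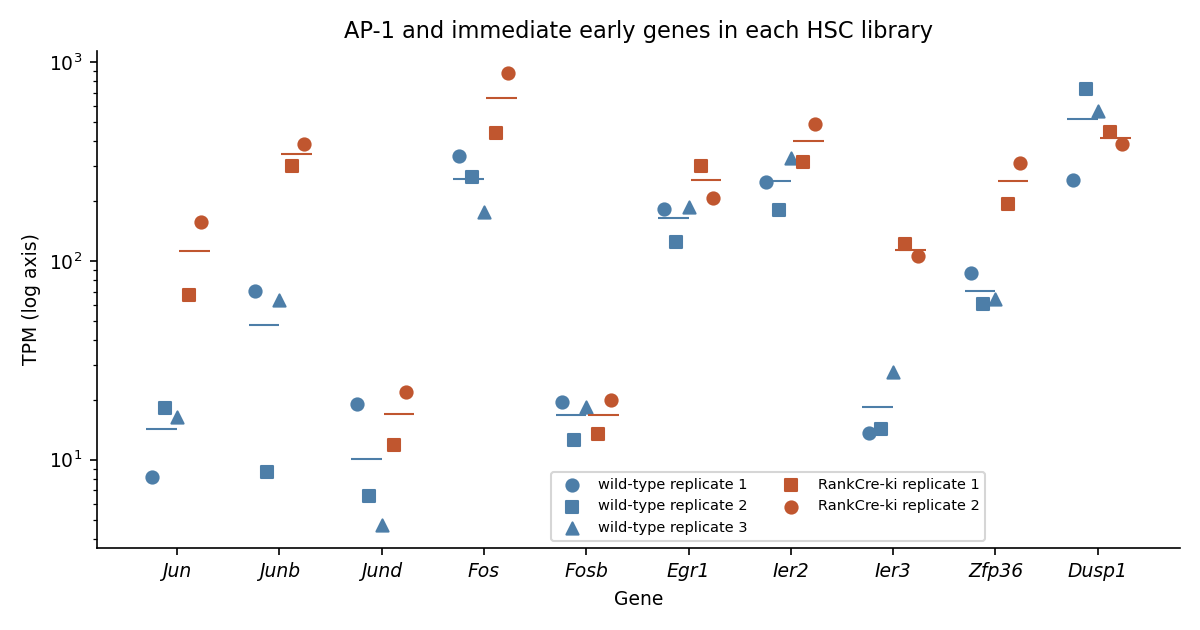
TPM of each gene on a log axis in each library, with wild-type in blue, RankCre-ki in orange, circles for name series 1, squares and triangles for name series 2, and a line at each group mean. For Jun, Junb, Fos, Egr1, Ier3 and Zfp36 both RankCre-ki libraries lie above all 3 wild-type libraries, while Jund, Fosb, Ier2 and Dusp1 overlap.

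The level of 6 of the 10 genes was higher in both libraries labelled RankCre-ki than in any wild-type library, a pattern that held for 18.8% of all 13981 tested genes. None of the 10 was lower in both, which 3.71% of tested genes were, and 4 overlapped. Because the genes were chosen on this contrast, nothing is read from these counts. No member was called between the genotypes by limma at an adjusted p of at most 0.1 with an absolute log2 fold change above 2 (limits taken from the study, which applied them to a count model rather than to limma on TPM), and 0% of tested genes were called (0 of 13981, 960 at an unadjusted p under 0.05). The median log2 difference, RankCre-ki minus wild-type on the log2(TPM + 1) scale, was 1.08 for the 10 genes and 0.52 for all tested genes, of which 72.3% had a difference above 0. The shift was smaller among abundant genes, here the 2551 that averaged 50 TPM or more over the libraries. Their median log2 difference was 0.14, with 14.0% above all wild-type libraries and 9.49% below. Of the 10 genes, 8 fall in this abundant class. All differences below stand against these backgrounds.

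Among the JUN subunits, Jun and Junb did not overlap between the groups and Jund did. Jun, the AP-1 subunit that activates transcription most strongly among its family, measured 8.16, 18.2 and 16.4 TPM across wild-type replicates 1 to 3, compared with 67.7 and 157 TPM across RankCre-ki replicates 1 and 2. The lower RankCre-ki library was 3.72 times the highest wild-type library, and the log2 difference was 2.84 ± 0.75 (SE, 3 against 2 libraries). Within name series 1 it was 4.10 and within name series 2 it was 1.91, so its size depended on the series while its direction did not. A difference at least as large was found for 3.46% of tested genes.

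Junb, which pairs with FOS proteins and in blood stem cells is known to restrain proliferation, was at 70.2, 8.72 and 63.9 TPM in wild-type and at 299 and 387 TPM in RankCre-ki libraries. Wild-type replicate 2 stood well below the other wild-type libraries, and the groups were separated by a factor of 4.26 at their nearest values. The log2 difference was 3.26 ± 0.89 (SE), the largest of the 10 genes over all libraries, and 1.72% of tested genes reached it. Without wild-type replicate 2 it was 2.33, below Jun (3.04) and Ier3 (2.49), and within name series 1 it was 2.45, below Jun (4.10) and Ier3 (2.87). Jund, a subunit that most cells keep at a steady level, measured 19.0, 6.60 and 4.68 TPM against 11.9 and 21.9 TPM. Its groups overlapped, with a log2 difference of 0.85 ± 1.08 (SE), and its ratio to Junb was 0.0732 to 0.757 in wild-type and 0.0397 and 0.0566 in RankCre-ki.

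FOS subunits cannot pair with each other and need a JUN partner. Fos was the most abundant AP-1 subunit in every library, at 336, 264 and 175 TPM in wild-type and at 439 and 877 TPM in RankCre-ki. The groups did not overlap, but the gap at the nearest values was only 1.30 times, against a spread of 1.92 times among wild-type libraries. The log2 difference was 1.31 ± 0.49 (SE), and 24.6% of tested genes had one as large. Fosb was at 19.6, 12.5 and 18.4 TPM against 13.5 and 19.98 TPM, with a log2 difference of -0.01 ± 0.84 (SE) and groups that overlapped, although RankCre-ki replicate 2 was marginally the highest library. Fos stood at 9.50 to 21.0 times Fosb in wild-type and at 32.6 and 43.9 times in RankCre-ki libraries.

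The make-up of AP-1 transcripts within a library can be read as a ratio, which no scaling of the library changes. Fos over Jun was 41.2, 14.5 and 10.7 in wild-type and 6.48 and 5.60 in RankCre-ki libraries. Fos and Fosb together over the 3 JUN genes was 3.66, 8.24 and 2.28 against 1.195 and 1.59. Both ratios were lower in RankCre-ki than in every wild-type library, while the wild-type libraries differed among themselves by more than the groups did at their nearest values. The summed JUN transcripts were 33.5 to 97.4 TPM against 378 and 566 TPM, and the summed FOS transcripts were 194 to 356 TPM against 452 and 897 TPM. Transcript ratios say nothing of protein pairs.

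**Figure D2:**
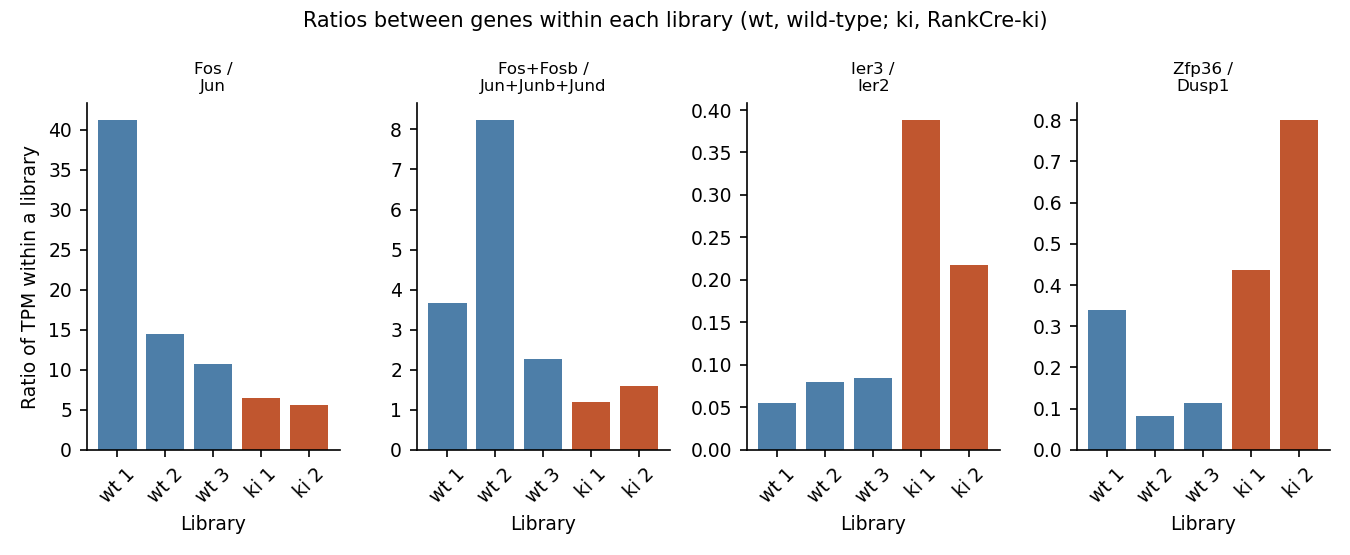
Ratio of TPM between genes within each library (each panel has its own axis from 0), wild-type in blue and RankCre-ki in orange. Fos over Jun and FOS over JUN subunits are lower in both RankCre-ki libraries, and Ier3 over Ier2 and Zfp36 over Dusp1 are higher, than in all wild-type libraries.

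Egr1, a zinc finger factor that keeps HSCs quiescent and in their niche, was at 182, 124 and 186 TPM in wild-type and at 299.7 and 208 TPM in RankCre-ki libraries. The groups did not overlap but came within 1.12 times of each other. The log2 difference was 0.63 ± 0.45 (SE), near the median of all genes (0.52), where the abundant class had a median of 0.14. Within name series 1 the Egr1 difference was 0.19 and within name series 2 it was 0.97.

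The IER genes, named for their immediate early response, were Ier3 and Ier2. Ier3, a small stress-induced protein linked to survival signalling, was at 13.6, 14.3 and 27.6 TPM in wild-type and at 122 and 106 TPM in RankCre-ki libraries. The groups were 3.83 times apart at their nearest values, the RankCre-ki libraries lay close together, and the log2 difference of 2.63 ± 0.66 (SE) was similar in name series 1 (2.87) and name series 2 (2.56). Ier2, a nuclear regulator of transcription, was at 248, 180 and 328 TPM against 314 and 486 TPM, which overlap, with a log2 difference of 0.67 ± 0.45 (SE). Ier3 was 0.0546, 0.0794 and 0.0842 times Ier2 in wild-type and 0.388 and 0.217 times in RankCre-ki libraries.

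Of the feedback genes, Zfp36 did not overlap between the groups and Dusp1 did. Zfp36 was at 86.6, 60.6 and 64.4 TPM in wild-type and at 194 and 309 TPM in RankCre-ki libraries, with groups 2.24 times apart at their nearest values. Its log2 difference was 1.80 ± 0.49 (SE), 1.82 within name series 1 and 1.62 within name series 2. Dusp1, the most abundant of the 10 genes in wild-type replicates 2 and 3 and in RankCre-ki replicate 1, was at 255, 731 and 565 TPM against 446 and 386 TPM. Its groups overlapped with a log2 difference of -0.19 ± 0.51 (SE), and the direction turned between name series 1 (0.60) and name series 2 (-0.53). Zfp36 was 0.340, 0.0830 and 0.114 times Dusp1 in wild-type and 0.436 and 0.801 times in RankCre-ki. Both genes carry 3 copies of TATTTAT in the 3′ UTR, as shown above.

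The order of the 10 mean levels differed between the genotypes. In wild-type it ran Dusp1 (517 TPM), Fos (258), Ier2 (252), Egr1 (164), Zfp36 (70.5), Junb (47.6), Ier3 (18.5), Fosb (16.8), Jun (14.3) and Jund (10.1). Neighbours overlapped in their library values except Egr1 and Zfp36. In RankCre-ki it ran Fos (658 TPM), Dusp1 (416), Ier2 (400.0), Junb (343), Egr1 (254), Zfp36 (252), Ier3 (114), Jun (112), Jund (16.9) and Fosb (16.7), and neighbours overlapped except Zfp36 with Ier3 and Jun with Jund. Within its own library, Junb ranked 1618, 6280 and 2285 among all genes in wild-type and 469 and 306 in RankCre-ki, where Fos ranked 375, 526 and 867 against 297 and 160. The 10 genes together held 1238, 1419 and 1450 TPM in wild-type and 2207 and 2958 TPM in RankCre-ki libraries.

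**Figure D3:**
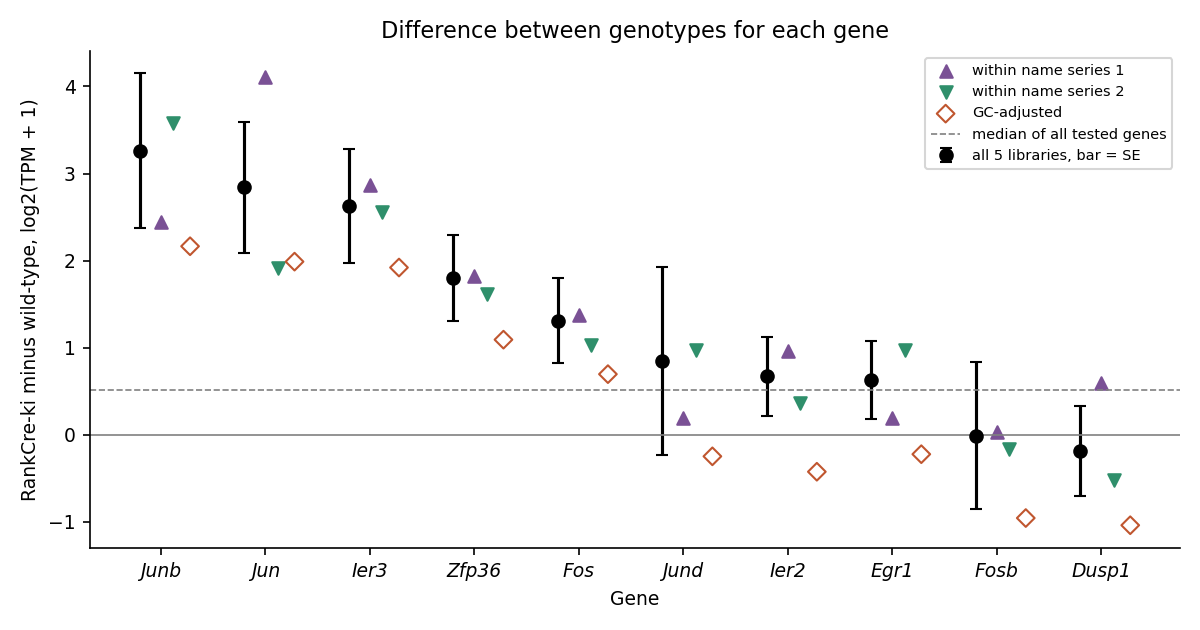
RankCre-ki minus wild-type difference in log2(TPM + 1) for each gene, with the SE over all 5 libraries as bars (3 against 2 libraries), triangles for the difference within each name series, diamonds for the GC-adjusted difference, and a dashed line at the median of all tested genes (0.52). Junb, Jun, Ier3, Zfp36 and Fos lie above that line in every version, and Dusp1 lies below 0 in all but name series 1.

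Name series and single libraries changed sizes more than directions. All 10 genes were higher in RankCre-ki within name series 1 and 8 of 10 within name series 2, where Fosb (-0.17) and Dusp1 (-0.53) were lower. Without RankCre-ki replicate 2, the library whose sex label did not match, the log2 difference was 2.24 for Jun, 3.08 for Junb, 2.73 for Ier3, 1.47 for Zfp36, 0.81 for Fos and 0.89 for Egr1, with a median of all genes of 0.71. RankCre-ki replicate 1 alone lay above all wild-type libraries for those same 6 genes, as it did for 33.8% of tested genes. RankCre-ki replicate 2 alone did so for 9 of the 10, all but Dusp1, and for 32.6% of tested genes.

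GC content moved with the difference between genotypes. The transcripts of the 10 genes had 51.9% to 67.1% GC (median 55.8%), above the 49.7% of the median tested gene. With tested protein-coding genes in 4 bins of equal size from low to high GC, the median log2 difference was 0.32, 0.42, 0.62 and 0.90, and 11.5%, 15.5%, 22.9% and 30.8% of genes lay above all wild-type libraries. When the median deviation of each library in 20 bins of GC was removed, an adjustment added after the data were seen, the log2 difference was 2.16 for Junb, 1.99 for Jun, 1.92 for Ier3 and 1.09 for Zfp36. These 4 still lay above all wild-type libraries, as did 10.6% of the 11045 genes, Zfp36 by a margin of hundredths (7.05 against 7.03 on the log2 scale). Fos (0.70) and Egr1 (-0.22) then overlapped, Ier2 (-0.42) and Jund (-0.25) turned below 0, and Fosb (-0.96) and Dusp1 (-1.04) lay below all wild-type libraries, as did 13.2% of genes. The median of the 10 genes fell from 1.08 to 0.24. Rescaling the libraries by median ratios also left Jun, Junb, Ier3 and Zfp36 above all wild-type libraries, but not Fos or Egr1. Under that scaling 12.2% of all tested genes lay above and 8.88% below.

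**Figure D4:**
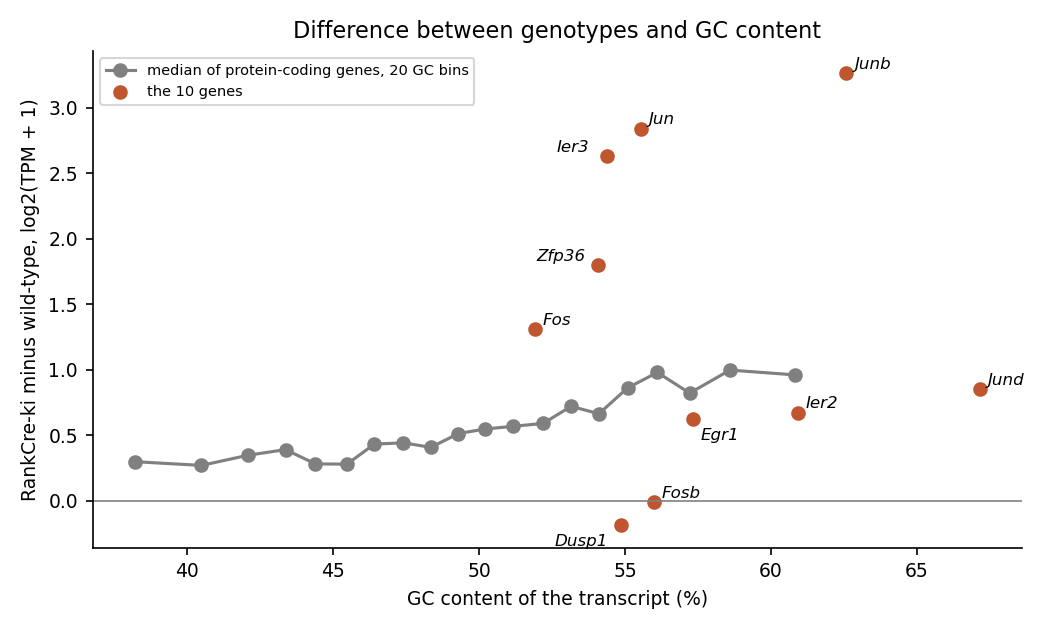
RankCre-ki minus wild-type difference in log2(TPM + 1) against the GC content of the transcript, with the median of protein-coding genes in 20 GC bins in grey and the 10 genes in orange. The grey medians rise with GC, Junb, Jun, Ier3, Zfp36 and Fos lie above them, and the other 5 genes lie below.

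Other genes of the pathway, and heat shock genes, were given from lists, of which no gene was called by limma. Of all tested genes 18.8% lay above and 3.71% below all wild-type libraries. In the lists the shares were 14.3% to 25% above and 0% to 12.5% below, and nothing is read from these counts. Among 9 tested partners of AP-1 in the bZIP class, 2 lay above all wild-type libraries and none below, with a median log2 difference of 0.77. Fosl2, a FOS-related subunit, was at 0.717, 0.0637 and 0 TPM in wild-type and at 2.87 and 2.79 TPM in RankCre-ki (adjusted p = 0.698). Atf4, a stress response factor, also lay above, at 30.8, 35.9 and 66.5 TPM against 73.8 and 71.1 TPM, with a log2 difference that fell from 0.77 to 0.07 after GC adjustment. Batf, a partner of JUN proteins in lymphoid cells, overlapped at 15.6 to 85.3 TPM against 44.1 and 76.5 TPM.

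Of 26 other tested immediate early genes, 5 lay above and 2 below all wild-type libraries, with a median of 0.54, close to that of all genes. Nfkbia, the inhibitor of NF-kB that NF-kB itself induces, was at 68.9, 100.3 and 122 TPM against 329 and 138 TPM, a log2 difference of 1.17 ± 0.55 (SE). Tnfaip3, another NF-kB feedback gene, measured 0, 0 and 0.00941 TPM compared with 7.54 and 3.04 TPM (adjusted p = 0.521). Ppp1r15a, which restarts translation after stress, was at 113 to 170 TPM against 189 and 194 TPM, and its log2 difference of 0.45 became -0.06 with median-ratio scaling. Hes1, a Notch target, had the opposite order, with 1.97 to 9.30 TPM against 0.661 and 0 TPM.

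Of 9 tested feedback regulators 2 lay above and none below, with a median of 0.46. Dusp2, a nuclear MAP kinase phosphatase, was at 49.9, 76.8 and 47.2 TPM in wild-type and at 144 and 207 TPM in RankCre-ki, a log2 difference of 1.59 ± 0.52 (SE) with a limma adjusted p of 0.531. Zfp36l2, a relative of Zfp36, was at 156, 232 and 281 TPM against 175 and 65.9 TPM. Summed over the feedback list, levels overlapped between groups, at 282 to 388 against 362 and 403 TPM.

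Of 28 tested upstream kinases and factors, 4 lay above and none below, with a median of 0.80. Mrtfa, a coactivator of serum response factor, was at 0, 0 and 3.15 TPM against 9.16 and 9.05 TPM, while the kinases Araf (16.4 to 74.5 against 58.6 and 60.4 TPM) and Map2k1 (13.6 to 129 against 58.5 and 64.5 TPM) overlapped. Of 8 tested genes known as AP-1 targets, 2 lay above and 1 below, with a median of 0.48. Cdkn1a, a cell cycle inhibitor, was at 4.79, 6.67 and 4.59 TPM in wild-type and at 0.275 and 0.668 TPM in RankCre-ki. Spp1, which encodes osteopontin, was at 0 to 0.0318 TPM against 5.62 and 1.12 TPM. The abundant targets Vim (43.6 to 108 against 69.6 and 82.3 TPM) and Trp53 (83.8 to 156 against 158 and 135 TPM) overlapped.

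Heat shock and ubiquitin genes, which respond to protein stress, showed no common direction. Of 10 tested, 2 lay above and 1 below all wild-type libraries, with a median log2 difference of 0.24. Ubb, a ubiquitin gene, measured 6525, 10058 and 8932 TPM in wild-type compared with 3643 and 3256 TPM in RankCre-ki, a log2 difference of -1.28 ± 0.38 (SE) with a limma adjusted p of 0.521. Hspa8, a constitutive chaperone, overlapped at 1876 to 3062 against 3370 and 1767 TPM. After GC adjustment the log2 difference was -1.99 for Ubb, 0.62 for Dusp2, 0.40 for Nfkbia and 2.10 for Tnfaip3.

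The genes whose profile over the 5 libraries was most like the mean profile of the 10 were sought among 2543 others with a mean of at least 50 TPM, by the root mean square difference of centred log2(TPM + 1). The nearest were Plgrkt (0.13), a plasminogen receptor, Rps2 (0.13), a ribosomal protein, Polr1d (0.17), a subunit of RNA polymerases I and III, Nme4 (0.17), a mitochondrial nucleoside diphosphate kinase, and Nob1 (0.20), a ribosome assembly factor. Rps2 was at 1476, 1063 and 1491 TPM in wild-type and at 2766 and 3168 TPM in RankCre-ki libraries. In all, 19 genes lay within 0.3, where the median gene was at 0.93. With 5 libraries such likeness is a description only.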

How the data were processed

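HSC libraries were made by the authors from pools of sorted cells with a full-length poly(A) protocol. Reads were converted with bcl2fastq 2.20.0, aligned with gsnap to mm10, and counted with featureCounts 2.0.1 for the authors' own test, DESeq2 with independent hypothesis weighting. The authors deposited TPM per gene. The tool that produced them is not given in the sources used here. TPM hold no depth, so no counting interval is possible. Of 55427 rows, 92 spike-in rows, at 0 throughout, were left out.

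Groups came from the sample labels. TPM were compared as log2(TPM + 1), which understates changes of low genes, with limma 3.58.1 in R 4.3.3 (lmFit, eBayes with trend, 5 libraries, no covariate), over 13981 genes that reached 1 TPM in 2 or more libraries and Benjamini-Hochberg adjustment. The code was tested on simulated data. Members, gene lists and tests were chosen with earlier results of these data known. Of each list outside the 10 genes, the text names the 2 most abundant genes and, per direction, the gene with the smallest p among those whose groups do not overlap. Some genes of these lists are not reported here. Markers, coordinates and exons used GENCODE M21, which holds 99.7% of the gene identifiers. Figures and sequences used Python 3.11.15. Alternatives covered pseudocount, filter, scaling, left-out libraries, blocks, threshold and, added after the data were seen, GC content.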

Additional observations from a re-analysis of the deposited data

How the results depend on the processing

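Of 591 values recomputed under alternative settings, 566 moved by less than the spread between libraries or stayed on the same side of the threshold. The number of genes called, 0 with all libraries, ranged from 0 to 17 when 1 library was left out (17 without RankCre-ki replicate 1, 8 without RankCre-ki replicate 2, where the lone RankCre-ki library is assumed to vary like the others), and was 1 with the replicate block. None of these calls was one of the 10 genes. Same-numbered libraries did not deviate together (correlations of -0.38 and -0.20). With only 2 RankCre-ki libraries these values cannot settle whether the numbers pair the samples. The replicate block changed no other call. The median log2 difference of the 10 genes, 1.08, was 0.24 after GC adjustment (chosen after seeing the data), 0.59 with median-ratio scaling, 0.97 with the replicate block, 0.91 with the name series block, and 0.85 to 1.54 with 1 library left out.

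The log2 ratio of the summed TPM, 0.92, was 0.40 with median-ratio scaling, 1.26 within name series 1, 0.62 within name series 2, and 0.69 to 1.11 with 1 library left out. Over all alternatives other than GC adjustment the log2 difference ranged from 1.91 to 4.10 for Jun, 2.33 to 3.76 for Junb, 2.13 to 2.94 for Ier3, 1.29 to 2.13 for Zfp36 and 0.80 to 1.81 for Fos. It ranged from -0.69 to 0.60 for Dusp1 and -0.49 to 0.26 for Fosb. The median of all genes was 0.16 with median-ratio scaling and -0.09 with quantile normalization. The cause of these shifts was not tested. TPM without depth leave the spread between 5 libraries as the only measure of precision.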
